A study of Mus musculus with 20 samples.

Results

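Mouse liver was compared 1 day after surgery with liver that had regrown. The comparison set the 2 libraries taken 24 h after partial hepatectomy (PHx), an operation in which 70% of the mouse liver is cut away, against 4 libraries of regrown liver, 2 taken at 14 d and 2 at 21 d after the same operation. These are 6 of the 20 libraries of the series. All 6 came from C57BL/6 mice, and the regrown livers had lost as much tissue as those sampled at 24 h, so neither group is unoperated. The growth protocol describes freshly isolated hepatocytes. Replicate 1 of each time carries the label primary hepatocyte and replicate 2 does not. Age, sex and the number of mice are not given, and the labels do not say whether replicates are separate animals, so a p-value reflects the scatter among libraries, which may be technical. Values are FPKM (by name, fragments per kilobase of transcript and per 1000000 fragments) for 54532 genes. Of these, 10251 reached an FPKM of at least 1 in 2 or more of the 6 libraries and were tested. By the second-highest of the 6 values, Hinfp (1.0003 FPKM) was just inside this filter and Zfp27 (0.9994 FPKM) just outside.

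After partial hepatectomy the hepatocytes of the remaining lobes, normally quiescent, leave G0, copy their DNA and divide until liver mass is restored. In mice the wave of hepatocyte DNA synthesis follows the first day, so the 24 h sample lies between the early cytokine response and cell division. During that interval the liver secretes acute-phase proteins, takes up fatty acids released from adipose tissue and lowers parts of its specialised metabolism.

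Recovered read depth was 18.9 M and 15.2 M reads at 24 h (M, 1000000) and 13.7 M to 25.5 M in the regrown libraries. The 24 h libraries differed from each other in RNA composition. Mitochondrial genes took 25.1% of reads in replicate 1 and 6.52% in replicate 2 at 24 h, against 4.13% to 8.41% in regrown liver. FPKM summed to 708167 and 429204 at 24 h and to 392291 to 446370 in regrown liver, so replicate 1 at 24 h stood apart on both measures. The library size implied by the FPKM of a single read was 14.6 M and 16.2 M at 24 h. Recovered reads over that size came to 1.29 and 0.94 at 24 h and to 0.87 to 1.04 in regrown liver. The FPKM were thus not scaled to each library's recovered reads, and their sums depend on that scaling as well as on composition. Spearman's rho over the tested genes was 0.919 between the 24 h libraries, 0.862 to 0.907 between 24 h replicate 1 and the regrown libraries, and 0.908 to 0.937 between 24 h replicate 2 and them. The series text describes a second submission, and replicate 2 was taken to belong to it, so each difference is also given within a replicate number: the 24 h library minus the mean of the 14 d and 21 d libraries of that number, on the log2 scale. Summed hepatocyte markers (12 genes, among them Alb and Ttr) came to 74677 and 45772 FPKM at 24 h, against 48231 to 84752 FPKM in the regrown libraries. Macrophage and Kupffer cell markers were present throughout, at 514 and 362 FPKM at 24 h, against 301 to 565 FPKM in the regrown libraries.

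On log2(FPKM + 1), limma with Benjamini-Hochberg adjustment called 11 genes higher (0.107% of those tested) and 13 lower (0.127%) at 24 h than in regrown liver. A call required an adjusted p under 0.05 and a log2 difference of at least 1 in size, and differences on this scale understate the change of low genes. The unadjusted p was under 0.05 for 1424 genes. By a second rule without a test, that both 24 h libraries lie outside the range of the 4 regrown libraries with a log2 difference of at least 1, 169 genes were higher (1.65%) and 194 lower (1.89%). After scaling all libraries to the same FPKM sum limma called 16 higher and 77 lower, with the median of all genes at -0.27. The log2 difference was above 0 for 5126 genes (50%), and its median over all tested genes was 0. After rescaling by median ratio that median was 0.0029. Whether the scaling of the FPKM set it near 0 was not tested. Few libraries stand behind these calls: without replicate 2 at 14 d limma called 0 genes higher and 0 lower, while 1685 had an unadjusted p under 0.05. Without replicate 1 at 24 h it called 3 higher and 2 lower, and without replicate 2 at 24 h 71 and 38.

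**Figure D1:**
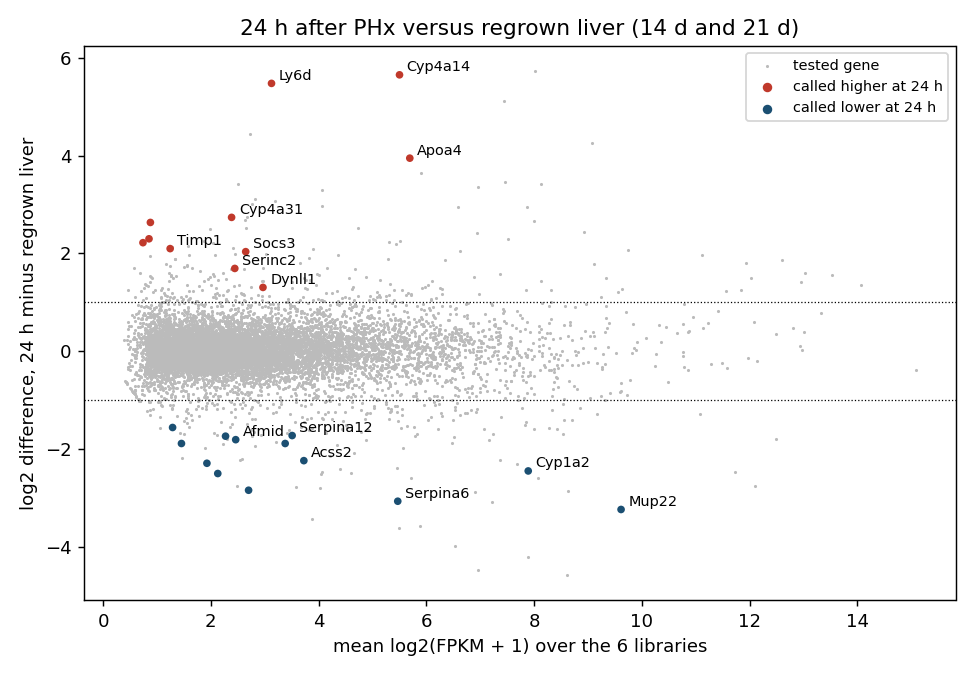
Log2 difference of 24 h minus regrown liver (vertical axis) against the mean of log2(FPKM + 1) over the 6 libraries (horizontal axis) for the 10251 tested genes. Red and blue points are the 11 genes called higher and the 13 called lower at 24 h, with the named ones labelled, and dotted lines mark a log2 difference of 1 in either direction; several uncalled genes lie farther from 0 than most called ones.

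The genes called higher at 24 h included a group for fatty acid and lipoprotein metabolism. Cyp4a14, a cytochrome P450 that hydroxylates the end of fatty acids and is a target of the nuclear receptor PPARA, stood at 621 and 614 FPKM at 24 h, against 11.7 and 11.1 FPKM at 14 d and 3.46 and 31.98 FPKM at 21 d. Both 24 h libraries lay far above all 4 regrown ones, and Cyp4a14 rose (log2 difference 5.65, SE 0.70, adjusted p = 0.0431; ENSMUSG00000028715, chr4:115486200-115496142). Cyp4a31, a paralog in the same gene cluster, was at 14.6 and 20.9 FPKM at 24 h, against 3.48 and 1.22 FPKM at 14 d and 0.974 and 2.02 FPKM at 21 d (log2 difference 2.74, SE 0.34, adjusted p = 0.0356; ENSMUSG00000028712, chr4:115563649-115579015). Reads shared between the near-identical Cyp4a genes may have been split by the authors' counting, so the values of single members are uncertain. Apoa4, an apolipoprotein of triglyceride-rich particles, was at 255 and 402 FPKM at 24 h, against 36.5 and 18.9 FPKM at 14 d and 20.2 and 10.8 FPKM at 21 d. Its lowest 24 h library exceeded its highest regrown library, and it rose (log2 difference 3.95, SE 0.44, adjusted p = 0.0234; ENSMUSG00000032080, chr9:46240696-46243459).

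Ly6d, a small membrane-anchored protein of the Ly6 family, was near the detection filter in regrown liver: it was at 185 and 63.7 FPKM at 24 h, against 1.82 and 1.63 FPKM at 14 d and 0.657 and 1.98 FPKM at 21 d. The 24 h libraries differed from each other but not in their side of the regrown range, and Ly6d rose (log2 difference 5.48, SE 0.44, adjusted p = 0.0101; ENSMUSG00000034634, chr15:74762056-74763620). Socs3, the feedback inhibitor of interleukin-6 and STAT3 signalling, was at 15.3 and 14.8 FPKM at 24 h, against 4.55 and 2.99 FPKM at 14 d and 3.11 and 1.58 FPKM at 21 d (log2 difference 2.04, SE 0.28, adjusted p = 0.0449; ENSMUSG00000053113, chr11:117966079-117970047). Timp1, a secreted inhibitor of matrix metalloproteinases, was at 5.16 and 5.34 FPKM at 24 h, against 0.382 and 1.01 FPKM at 14 d and 0 and 0.633 FPKM at 21 d (log2 difference 2.10, SE 0.27, adjusted p = 0.0356; ENSMUSG00000001131, chrX:20870166-20874735). For both genes the 24 h libraries agreed closely with each other and did not overlap the regrown ones. Serinc2, a membrane protein of the serine incorporator family, was at 10.4 and 11.4 FPKM at 24 h, against 2.34 and 2.37 FPKM at 14 d and 2.49 and 3.67 FPKM at 21 d (log2 difference 1.69, SE 0.19, adjusted p = 0.0225; ENSMUSG00000023232, chr4:130253495-130279205). Dynll1, a dynein light chain, was at 14.2 and 12.5 FPKM at 24 h, against 4.18 and 5.84 FPKM at 14 d and 4.89 and 4.37 FPKM at 21 d (log2 difference 1.31, SE 0.18, adjusted p = 0.0419; ENSMUSG00000009013, chr5:115297110-115300999). The remaining 3 genes called higher, Mir7678, mt-Tv and Gm22043, fell outside the naming rule and are named after their values were seen.

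The named genes called lower at 24 h were products and enzymes of mature hepatocytes. Mup22, one of the major urinary proteins that bind pheromones, was at 191 and 159.9 FPKM at 24 h, against 1278 and 1955 FPKM at 14 d and 2126 and 1417 FPKM at 21 d. The regrown libraries were all several times higher, and Mup22 fell (log2 difference -3.24, SE 0.33, adjusted p = 0.015; ENSMUSG00000110439, chr4:60817589-60821463), although the Mup genes are near-identical copies and the level of a single member is uncertain. Serpina6, which encodes the corticosteroid-binding globulin of plasma, was at 7.65 and 12.3 FPKM at 24 h, against 73.3 and 64.2 FPKM at 14 d and 160.3 and 83.2 FPKM at 21 d (log2 difference -3.07, SE 0.39, adjusted p = 0.0356; ENSMUSG00000060807, chr12:103646630-103657212). Cyp1a2, a cytochrome P450 of drug and caffeine metabolism found around the central vein, was at 82.7 and 69.1 FPKM at 24 h, against 322 and 360.4 FPKM at 14 d and 576 and 454 FPKM at 21 d (log2 difference -2.45, SE 0.31, adjusted p = 0.0356; ENSMUSG00000032310, chr9:57676937-57683703). Both fell, with no overlap between 24 h and regrown libraries.

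Acss2, which makes cytosolic acetyl-CoA from acetate, was at 3.51 and 3.91 FPKM at 24 h, against 15.7 and 24.5 FPKM at 14 d and 24.2 and 21.7 FPKM at 21 d. All 4 regrown libraries exceeded both 24 h libraries, and Acss2 fell (log2 difference -2.24, SE 0.22, adjusted p = 0.0133; ENSMUSG00000027605, chr2:155517948-155585724). Serpina12, the secreted protein vaspin, was at 3.15 and 5.35 FPKM at 24 h, against 17.1 and 15.1 FPKM at 14 d and 18.5 and 13.5 FPKM at 21 d (log2 difference -1.73, SE 0.23, adjusted p = 0.0404; ENSMUSG00000041567, chr12:104028769-104044443). Afmid, the formamidase of tryptophan breakdown, was at 0.966 and 1.90 FPKM at 24 h, against 6.19 and 6.99 FPKM at 14 d and 7.48 and 9.06 FPKM at 21 d (log2 difference -1.81, SE 0.21, adjusted p = 0.0283; ENSMUSG00000017718, chr11:117825924-117839908). Afmid and the thymidine kinase gene Tk1 overlap at their starts on opposite strands, and whether counting used the strand is not given in the sources used here. Tk1 itself, which missed the threshold, was at 1.95 and 1.54 FPKM at 24 h, against 2.86 and 3.30 FPKM at 14 d and 4.05 and 3.42 FPKM at 21 d (log2 difference -0.68, SE 0.17, adjusted p = 0.178). The other 7 genes called lower, Gm4956, Gbp2b, BC023105, Gm13775, Mup-ps16, 1810008I18Rik and Gm31583, were outside the naming rule and are named after their values were seen.

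**Figure D2:**
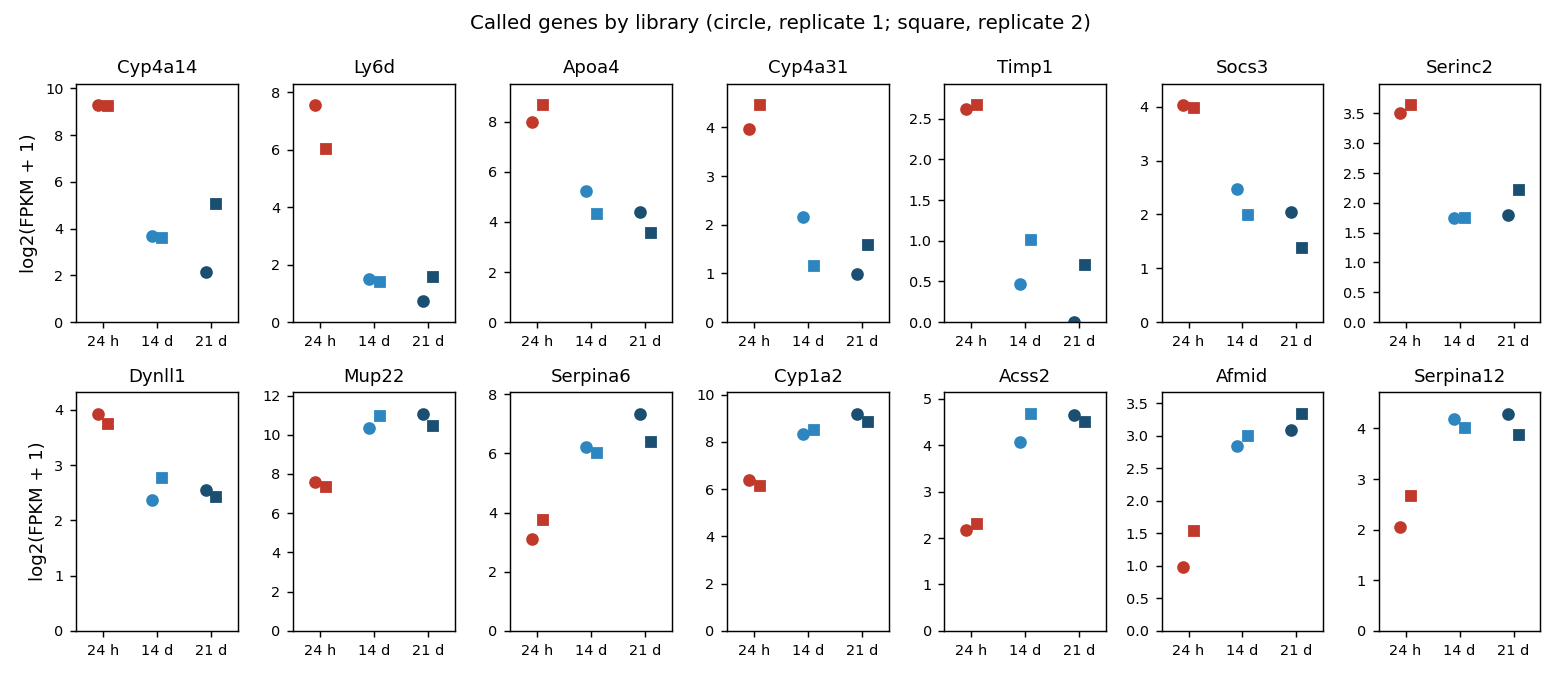
Level as log2(FPKM + 1) in each library (vertical axis, from 0) of the 14 named genes called between 24 h and regrown liver. Red marks are 24 h, light blue 14 d and dark blue 21 d, with a circle for replicate 1 and a square for replicate 2. In every panel the 2 red marks lie outside the range of the 4 blue ones, as the naming rule required.

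In every one of these 14 genes the difference had the same sign within replicate 1 and within replicate 2. The naming rule required groups that do not overlap, so this agreement in sign was fixed in advance. The difference was 6.37 within replicate 1 and 4.94 within replicate 2 for Cyp4a14 and 3.18 within replicate 1 and 4.72 within replicate 2 for Apoa4. For Socs3 it was 1.77 within replicate 1 and 2.30 within replicate 2. Among the genes called lower it was -3.10 within replicate 1 and -3.37 within replicate 2 for Mup22 and -2.18 within replicate 1 and -1.27 within replicate 2 for Serpina12. None of the 24 called genes changed sign under any alternative setting that gave it a value, but the calls were often lost. For the 14 named genes the settings that only left out libraries or a late time could not change the sign. Their groups did not overlap by the naming rule, so the kept sign there is no separate evidence. All 24 were lost without replicate 2 at 14 d. Of 20 alternative settings Dynll1 kept its call in 2, Timp1 and Socs3 in 5, Cyp4a14 and Serpina12 in 6, Cyp4a31 in 7, Cyp1a2 in 8 and Serpina6 in 10. Mup22 and Afmid kept it in 11, Apoa4, Acss2 and Serinc2 in 12 and Ly6d in 14. Leaving out any 1 of the 6 libraries ended the call of Dynll1.

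The rest of the comparison is described over gene lists by their members' values, with the median log2 difference (24 h minus regrown) beside the median of 0 over all tested genes. Counts of members that do not overlap follow the second rule above and are read against 1.65% higher and 1.89% lower over all tested genes. The members described from a list are drawn from the up to 4 with the largest limma t, in size, in this same comparison. That their groups lie apart therefore follows in part from how they were picked and does not describe the whole list. Members named only to complete a count were chosen after their values were seen. A member could pass the filter through either group alone, which can tilt a list's counts and median to that side. After scaling to the same FPKM sum the medians of 12 of the 46 lists turned below 0, to between -0.245 and -0.024, all above the -0.27 of all genes. They were those of fatty acid oxidation, lipid droplets, DNA replication, G1, ribosomal proteins, the proteasome, heat shock, Nrf2 targets, glycolysis, chemokines, YAP targets and iron and heme. Relative to the shift of all genes 0 lists turned. With bulk RNA, fewer cells of a type and less RNA per cell cannot be told apart.

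**Figure D3:**
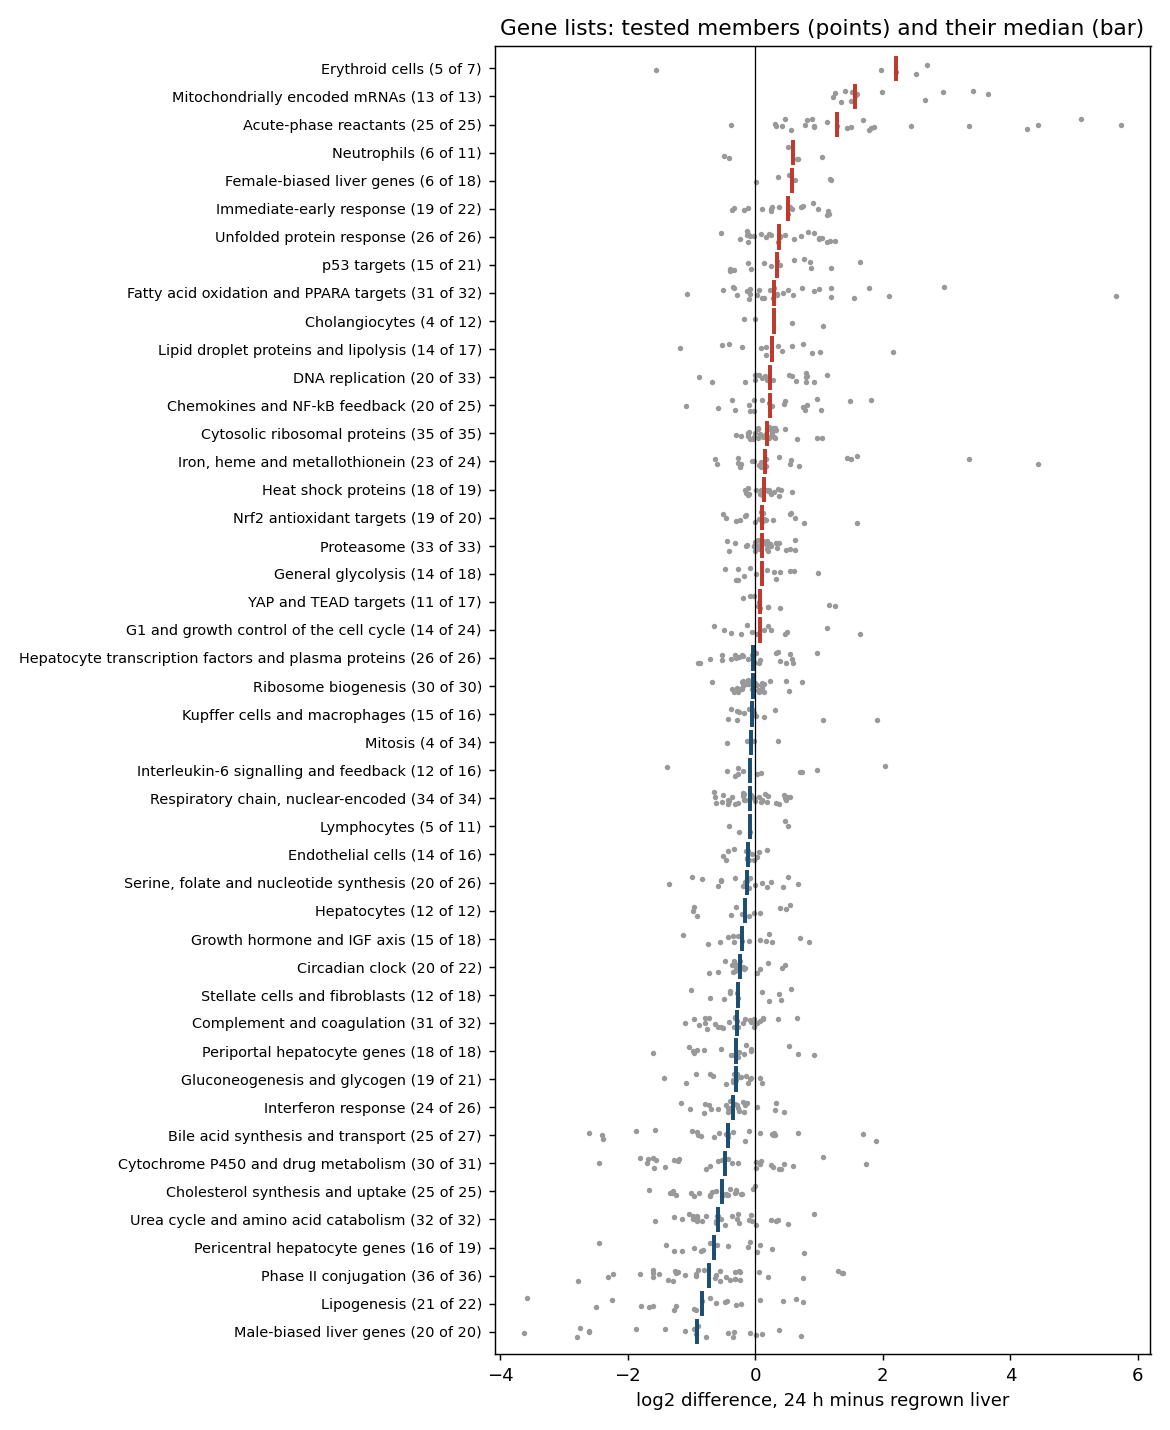
Log2 difference of 24 h minus regrown liver (horizontal axis) for the tested members of each gene list (grey points) with the list's median as a bar, red above 0 and blue below. Lists run from the highest median at the top to the lowest, with the number of tested members of all members in brackets; acute-phase reactants have a median of 1.28 and male-biased liver genes of -0.91.

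Acute-phase reactants were higher at 24 h in 24 of 25 members, and 9 members did not overlap regrown liver. The list holds plasma proteins that hepatocytes secrete under interleukin-6 but also the intracellular metallothionein Mt2. The median log2 difference was 1.28, made up of 0.55 within replicate 1 and 2.01 within replicate 2. The regrown reference was itself uneven, with replicate 1 at 14 d the highest of its 4 libraries. Saa2, a serum amyloid A protein, was at 3479 and 3801 FPKM at 24 h, against 548 and 53.4 FPKM at 14 d and 101 and 6.20 FPKM at 21 d. Lcn2, the iron-binding lipocalin that sequesters siderophores, was at 1899 and 1777 FPKM at 24 h, against 363 and 48.4 FPKM at 14 d and 46.1 and 8.39 FPKM at 21 d. Mt2, a metal-binding metallothionein, was at 55.6 and 45.5 FPKM at 24 h, against 17.4 and 0.326 FPKM at 14 d and 0.277 and 0 FPKM at 21 d. Serpina3n, a secreted protease inhibitor, was at 961 and 2385 FPKM at 24 h, against 581 and 200.03 FPKM at 14 d and 281 and 181 FPKM at 21 d. In all 4 genes both 24 h libraries exceeded every regrown library, but the spread among the regrown libraries was wide and none was called (adjusted p = 0.229 for Saa2, log2 difference 5.73 with SE 1.55, and adjusted p = 0.168 for Serpina3n). Against the 14 d libraries alone the list's median was 0.83, against the 21 d libraries alone 1.60, and against the 2 undamaged libraries 0.15. Those undamaged libraries were split, with Saa2 at 24079 FPKM in one and 5.91 FPKM in the other.

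In the list of interleukin-6 signalling and its feedback (12 of 16 tested, median -0.08), Socs3 was the single member called. Bcl3, a nuclear regulator of NF-kB, was at 18.1 and 14.9 FPKM at 24 h, against 5.09 and 9.54 FPKM at 14 d and 8.78 and 9.03 FPKM at 21 d (log2 difference 0.97, SE 0.26, adjusted p = 0.2). Lifr, the receptor for leukemia inhibitory factor, was at 7.49 and 8.37 FPKM at 24 h, against 11.5 and 22.6 FPKM at 14 d and 34.9 and 26.4 FPKM at 21 d (log2 difference -1.38, SE 0.39, adjusted p = 0.222). Neither overlapped between the groups, and they lay on opposite sides. The Socs3 promoter is shown because Socs3 is the called gene of this pathway and STAT proteins bind the palindrome TTCNNNGAA. The 250 bases before its RefSeq start (GRCm38.p6, chr11:117969367-117969616, minus strand) hold 1 match, in capitals. By the gene coordinates given above this window lies inside Socs3 and not upstream of it. The bases after this RefSeq start were not found whole in an annotated transcript of the gene, so the start is uncertain.
Socs3: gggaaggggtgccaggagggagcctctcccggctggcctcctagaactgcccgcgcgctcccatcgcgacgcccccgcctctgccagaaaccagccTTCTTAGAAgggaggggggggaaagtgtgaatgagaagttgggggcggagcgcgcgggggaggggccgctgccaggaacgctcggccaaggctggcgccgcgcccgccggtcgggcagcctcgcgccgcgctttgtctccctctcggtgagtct
On either strand this motif occurs in 8.13% of the 27025 RefSeq promoters of this length, in 6 of the 21 acute-phase promoters found in the table and in 1 of the 15 of interleukin-6 signalling. A match is a description of the letters and not a bound site.

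The list of fatty acid oxidation and PPARA targets had a median of 0.30 over 31 of 32 tested members (-0.14 within replicate 1 and 0.73 within replicate 2). Beside Cyp4a14, 6 members were higher with no overlap and none was lower. Cyp4a10, the neighbouring fatty acid hydroxylase, was at 279 and 502 FPKM at 24 h, against 26.95 and 33.7 FPKM at 14 d and 60.8 and 89.98 FPKM at 21 d (log2 difference 2.96, SE 0.51, adjusted p = 0.0964). Vnn1, a pantetheinase, was at 38.1 and 38.7 FPKM at 24 h, against 4.28 and 7.15 FPKM at 14 d and 18.1 and 7.65 FPKM at 21 d (log2 difference 2.10, SE 0.46, adjusted p = 0.166). Acot2, a mitochondrial acyl-CoA thioesterase, was at 4.23 and 3.54 FPKM at 24 h, against 0.270 and 0.379 FPKM at 14 d and 1.97 and 0.512 FPKM at 21 d (log2 difference 1.54, SE 0.34, adjusted p = 0.16). These 3 did not pass the adjusted threshold, although both 24 h libraries exceeded all regrown ones. Ppara itself, named after its values were seen, was at 2.33 and 9.72 FPKM at 24 h, against 11.98 and 5.35 FPKM at 14 d and 28.7 and 9.22 FPKM at 21 d, with the groups overlapping.

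Lipid droplet genes had a median of 0.26 over 14 of 17 tested members, but -0.13 within replicate 1 and 0.46 within replicate 2. A difference above 0 was found in 10, and Plin5 and Cidec were higher with no overlap. Cidec, which fuses lipid droplets, was at 7.18 and 6.97 FPKM at 24 h, against 0.914 and 0.551 FPKM at 14 d and 2.26 and 0.114 FPKM at 21 d (log2 difference 2.16, SE 0.39, adjusted p = 0.117). Plin5, which tethers droplets to mitochondria, was at 25.1 and 39.05 FPKM at 24 h, against 14.9 and 14.3 FPKM at 14 d and 16.4 and 14.5 FPKM at 21 d (log2 difference 1.01, SE 0.22, adjusted p = 0.159). Plin2, the main droplet coat protein of hepatocytes, was at 135 and 149 FPKM at 24 h, against 48.4 and 73.1 FPKM at 14 d and 119 and 78.3 FPKM at 21 d (log2 difference 0.89, SE 0.35, adjusted p = 0.321). The lowest 24 h value of each gene lay above its highest regrown value, and none of the differences was called.

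Cholesterol synthesis and uptake genes were lower at 24 h in all 25 members, and 5 did not overlap regrown liver past a log2 difference of 1. With no limit on size 10 of 25 were lower without overlap, against 13% of all tested genes. The median was -0.52, with -1.01 within replicate 1 and -0.17 within replicate 2, so most of it came from replicate 1, and no member was called. Sc5d, the sterol desaturase late in the pathway, was at 37.3 and 45.4 FPKM at 24 h, against 88.7 and 122 FPKM at 14 d and 88.2 and 129 FPKM at 21 d (log2 difference -1.33, SE 0.26, adjusted p = 0.125). Nsdhl, which removes methyl groups from sterol C4, was at 14.3 and 16.1 FPKM at 24 h, against 53.2 and 33.2 FPKM at 14 d and 39.6 and 31.2 FPKM at 21 d (log2 difference -1.29, SE 0.26, adjusted p = 0.125). Tm7sf2, a sterol reductase, was at 12.1 and 12.7 FPKM at 24 h, against 22.4 and 32.4 FPKM at 14 d and 25.8 and 21.01 FPKM at 21 d (log2 difference -0.96, SE 0.22, adjusted p = 0.17). Insig1, the endoplasmic reticulum protein that retains the SREBP escort factor when sterols are plentiful, was at 36.7 and 76.6 FPKM at 24 h, against 126 and 160.5 FPKM at 14 d and 113 and 138 FPKM at 21 d (log2 difference -1.31, SE 0.33, adjusted p = 0.187). In each of these 4 genes the highest 24 h library lay below the lowest regrown one. The other members past a log2 difference of 1 with no overlap were Idi1 (-1.66) and Stard4 (-1.24).

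The promoters of the 4 named sterol genes are shown because all 25 members lay on one side of regrown liver and many sterol promoters carry a CCAAT box, the site of NF-Y, which acts beside SREBP. Each is the 250 bases before the RefSeq start on the gene's strand (GRCm38.p6), at chr9:42264301-42264550, minus strand for Sc5d, chrX:72918271-72918520, plus strand for Nsdhl, chr19:6067851-6068100, minus strand for Tm7sf2 and chr5:28071162-28071411, plus strand for Insig1. The bases after the RefSeq start were found whole in an annotated transcript for Tm7sf2 and Insig1 but not for Sc5d and Nsdhl, whose starts are less certain. Capitals mark CCAAT on either strand.
Sc5d: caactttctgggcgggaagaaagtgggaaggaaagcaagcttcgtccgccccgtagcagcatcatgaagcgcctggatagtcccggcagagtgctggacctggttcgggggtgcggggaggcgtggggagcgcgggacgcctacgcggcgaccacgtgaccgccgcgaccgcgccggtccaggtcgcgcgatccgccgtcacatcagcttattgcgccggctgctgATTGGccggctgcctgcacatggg
Nsdhl: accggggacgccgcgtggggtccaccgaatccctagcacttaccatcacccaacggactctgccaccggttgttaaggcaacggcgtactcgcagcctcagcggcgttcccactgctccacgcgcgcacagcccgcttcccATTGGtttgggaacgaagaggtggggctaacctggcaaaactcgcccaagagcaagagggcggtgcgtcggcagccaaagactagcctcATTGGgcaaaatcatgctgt
Tm7sf2: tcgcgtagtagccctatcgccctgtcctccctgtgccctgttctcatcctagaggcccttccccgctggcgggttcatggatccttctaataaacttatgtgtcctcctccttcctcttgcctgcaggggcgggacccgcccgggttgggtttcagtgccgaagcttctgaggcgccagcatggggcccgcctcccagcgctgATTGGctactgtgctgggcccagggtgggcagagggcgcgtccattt
Insig1: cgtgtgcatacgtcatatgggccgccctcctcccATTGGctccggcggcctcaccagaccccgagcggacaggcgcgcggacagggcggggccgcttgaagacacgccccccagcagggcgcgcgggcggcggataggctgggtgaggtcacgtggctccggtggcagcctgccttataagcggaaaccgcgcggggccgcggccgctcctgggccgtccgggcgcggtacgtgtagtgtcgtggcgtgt
The box occurred in 16 of the 17 sterol promoters found in the table and in 37.5% of all 27025 promoters. The sterol regulatory element, searched as TCACNCCAC on both strands, occurred in 1 of the 17 and in 1.22% of all promoters. No match says only that these letters are not in the window.

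Lipogenesis genes, which make and esterify fatty acids, were lower in 17 of 21 tested members of 22, and 8 did not overlap with a log2 difference of at least 1. The median was -0.84 (-0.68 within replicate 1 and -0.98 within replicate 2), and Acss2 was the 1 member called. Thrsp, a regulator of lipogenic enzymes, was at 9.24 and 11.4 FPKM at 24 h, against 71.9 and 164 FPKM at 14 d and 337 and 78.9 FPKM at 21 d (log2 difference -3.58, SE 0.62, adjusted p = 0.11). Pklr, the liver pyruvate kinase, was at 5.15 and 8.59 FPKM at 24 h, against 35.9 and 29.9 FPKM at 14 d and 84.2 and 35.3 FPKM at 21 d (log2 difference -2.496, SE 0.42, adjusted p = 0.0964). Fasn, the fatty acid synthase, was at 11.5 and 7.65 FPKM at 24 h, against 25.7 and 31.3 FPKM at 14 d and 38.5 and 27.6 FPKM at 21 d (log2 difference -1.60, SE 0.25, adjusted p = 0.0701). Both 24 h libraries lay below all regrown libraries in each, with the 21 d libraries unequal for Thrsp and Pklr.

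Phase II conjugation, which attaches glucuronate, sulfate or glutathione to drugs and hormones, was lower in 30 of 36 members. In 14 the libraries did not overlap and the log2 difference was at least 1 in size, 1 member (Gstt2) was higher by the same rule, and the median was -0.72 (-0.54 within replicate 1 and -0.94 within replicate 2). Gsta3, a glutathione transferase, was at 122 and 102 FPKM at 24 h, against 324 and 297 FPKM at 14 d and 382 and 289 FPKM at 21 d (log2 difference -1.52, SE 0.26, adjusted p = 0.0911). Ugt2b1, a glucuronosyltransferase, was at 84.2 and 57.1 FPKM at 24 h, against 209 and 324 FPKM at 14 d and 467 and 462 FPKM at 21 d (log2 difference -2.31, SE 0.39, adjusted p = 0.0911). Ugt1a5 was at 1.46 and 3.16 FPKM at 24 h, against 8.66 and 7.84 FPKM at 14 d and 11.7 and 7.25 FPKM at 21 d (log2 difference -1.60, SE 0.26, adjusted p = 0.0855), and shares its last exons with the other Ugt1a genes, so its own level is uncertain. Sult5a1, of the sulfotransferase family, was at 0.356 and 0.488 FPKM at 24 h, against 1.496 and 2.46 FPKM at 14 d and 2.07 and 2.31 FPKM at 21 d (log2 difference -1.11, SE 0.18, adjusted p = 0.0826). Regrown libraries were higher in every one of these genes, and no member of the list was called. With no limit on size 17 of 36 were lower without overlap and 1 was higher, against 13% and 12.2% of all tested genes.

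Cytochrome P450 and drug metabolism genes were lower with no overlap in 9 of 30 tested members of 31, none was higher by that rule, and the median was -0.47 (-0.86 within replicate 1 and -0.68 within replicate 2). Besides Cyp1a2, the named members were Cyp2c genes, close paralogs whose reads can be shared. Cyp2c50 was at 113 and 130.3 FPKM at 24 h, against 325 and 317 FPKM at 14 d and 482 and 372 FPKM at 21 d (log2 difference -1.59, SE 0.28, adjusted p = 0.0964). Cyp2c70, which makes the muricholic bile acids of mice, was at 183 and 157 FPKM at 24 h, against 378 and 728 FPKM at 14 d and 465 and 695 FPKM at 21 d (log2 difference -1.68, SE 0.35, adjusted p = 0.131). Cyp2c54 was at 49.8 and 92.7 FPKM at 24 h, against 231 and 163 FPKM at 14 d and 280.2 and 233 FPKM at 21 d (log2 difference -1.70, SE 0.34, adjusted p = 0.128). None of the 3 was called, and none overlapped between groups.

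Bile acid synthesis and transport genes had a median of -0.43 over 25 of 27 members, with members on both sides. Slco1a1, an organic anion uptake transporter, was at 10.1 and 21.3 FPKM at 24 h, against 61.2 and 105 FPKM at 14 d and 99.8 and 124 FPKM at 21 d (log2 difference -2.60, SE 0.38, adjusted p = 0.0553). Akr1d1, the steroid reductase of bile acid synthesis, was at 39.8 and 11.2 FPKM at 24 h, against 76.6 and 51.6 FPKM at 14 d and 88.2 and 52.6 FPKM at 21 d (log2 difference -1.58, SE 0.48, adjusted p = 0.242). Abcb4, which exports phospholipid into bile, lay on the other side, at 107 and 28.3 FPKM at 24 h, against 15.03 and 14.8 FPKM at 14 d and 20.9 and 15.6 FPKM at 21 d (log2 difference 1.69, SE 0.47, adjusted p = 0.225). The 24 h libraries were unequal for Akr1d1 and Abcb4, while neither overlapped regrown liver.

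Male-biased liver genes, which depend on the pulsed secretion of growth hormone in male mice, had the lowest median of all lists, -0.91 (-1.17 within replicate 1 and -0.72 within replicate 2). Of 20 members 16 were lower and 5 did not overlap: Mup1, Mup7, Hsd3b5, Slco1a1 and C6. Hsd3b5, a hydroxysteroid dehydrogenase of male liver, was at 3.001 and 17.1 FPKM at 24 h, against 37.8 and 101 FPKM at 14 d and 243 and 122 FPKM at 21 d (log2 difference -3.62, SE 0.84, adjusted p = 0.18). Mup1 was at 2.07 and 5.60 FPKM at 24 h, against 38.6 and 30.2 FPKM at 14 d and 45.3 and 15.7 FPKM at 21 d (log2 difference -2.79, SE 0.47, adjusted p = 0.0964). In both genes the regrown libraries spread widely and still lay above 24 h. Ghr, the growth hormone receptor, was at 24.6 and 25.3 FPKM at 24 h, against 40.9 and 42.8 FPKM at 14 d and 84.1 and 65.5 FPKM at 21 d (log2 difference -1.13, SE 0.33, adjusted p = 0.225). The list of the growth hormone and IGF axis had a median of -0.21 over 15 of 18 members. Xist was at most 0.0142 FPKM and the Y-linked gene Ddx3y at 9.66 to 16.9 FPKM in all 6 libraries, with both groups on the same side for these sex markers. At 48 h, 72 h and 7 d, which are not part of the comparison, Xist was at 13.6 to 23.7 FPKM and Ddx3y at 0.

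Urea cycle and amino acid catabolism genes were lower in 26 of 32 members (median -0.58; -0.55 within replicate 1 and -0.31 within replicate 2). Otc, Glul and Uroc1 were among the members that did not overlap, with a log2 difference of at least 1 in size. Otc, the mitochondrial enzyme that makes citrulline, was at 63.7 and 27.9 FPKM at 24 h, against 83.9 and 84.8 FPKM at 14 d and 139 and 115 FPKM at 21 d (log2 difference -1.27, SE 0.38, adjusted p = 0.232). Haao, of tryptophan breakdown, was at 132 and 140.4 FPKM at 24 h, against 247 and 269 FPKM at 14 d and 329 and 198 FPKM at 21 d (log2 difference -0.91, SE 0.28, adjusted p = 0.24). Both Otc and Haao were higher in every regrown library than in either 24 h library, and no member of the list was called. With no limit on size 14 of 32 were lower without overlap and 3 were higher, against 13% and 12.2% of all tested genes.

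Genes expressed around the central vein had a median of -0.65 over 16 of 19 members (-0.84 within replicate 1 and -0.03 within replicate 2). Those expressed around the portal vein had a median of -0.30 over 18 (0.01 within replicate 1 and -0.63 within replicate 2). The replicates thus gave opposite orders of the 2 zones. Rgn, regucalcin, was at 200.1 and 193 FPKM at 24 h, against 498 and 439 FPKM at 14 d and 806 and 418 FPKM at 21 d (log2 difference -1.40, SE 0.34, adjusted p = 0.177). Cyp2f2, a periportal cytochrome P450, was at 226 and 117 FPKM at 24 h, against 362 and 558 FPKM at 14 d and 535 and 557 FPKM at 21 d (log2 difference -1.60, SE 0.36, adjusted p = 0.16). Both were lower at 24 h without overlap, one from each zone.

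In gluconeogenesis and glycogen metabolism (19 of 21 tested, median -0.30) 17 members were lower. Pygl, the liver glycogen phosphorylase, was at 23.04 and 21.1 FPKM at 24 h, against 47.9 and 61.3 FPKM at 14 d and 70.03 and 67.9 FPKM at 21 d (log2 difference -1.43, SE 0.23, adjusted p = 0.0835), and was the 1 member with no overlap past a log2 difference of 1. Complement and coagulation genes were lower in 24 of 31 tested members of 32 (median -0.29; -0.34 within replicate 1 and -0.22 within replicate 2). C6 and C8b are components of the membrane attack complex. C6 was at 40.6 and 43.6 FPKM at 24 h, against 82.2 and 71.01 FPKM at 14 d and 144 and 83.2 FPKM at 21 d (log2 difference -1.10, SE 0.31, adjusted p = 0.222). C8b was at 101 and 126 FPKM at 24 h, against 209 and 203 FPKM at 14 d and 261 and 212 FPKM at 21 d (log2 difference -0.96, SE 0.25, adjusted p = 0.197). The acute-phase list and the complement and coagulation list divided, with most members of the former higher and most of the latter lower at 24 h. Alb, named after its values were seen, was at 40825 and 20852 FPKM at 24 h, against 23936 and 33893 FPKM at 14 d and 42311 and 61188 FPKM at 21 d.

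Genes of the unfolded protein response, which expand the folding capacity of the endoplasmic reticulum, were higher in 18 of 26 members, with a median of 0.37 (0.45 within replicate 1 and 0.42 within replicate 2). It was 0.58 without replicate 1 at 24 h, 0.13 without replicate 2 at 24 h and 0.02 at the same FPKM sum. Dnajb11, Manf and Calr did not overlap and passed a log2 difference of 1. Calr, calreticulin, the calcium-binding chaperone of glycoproteins, was at 515 and 493 FPKM at 24 h, against 269 and 305 FPKM at 14 d and 201 and 242 FPKM at 21 d (log2 difference 1.003, SE 0.27, adjusted p = 0.208). Dnajb11, a cochaperone of BiP, was at 60.8 and 65.5 FPKM at 24 h, against 26.2 and 43.6 FPKM at 14 d and 21.1 and 26.5 FPKM at 21 d (log2 difference 1.13, SE 0.30, adjusted p = 0.199). The protein disulfide isomerases Pdia3 and Pdia6 were also outside the regrown range. Pdia3 was at 291 and 307 FPKM at 24 h, against 149 and 189.7 FPKM at 14 d and 144 and 197 FPKM at 21 d (log2 difference 0.82, SE 0.26, adjusted p = 0.251). Pdia6 was at 157 and 188 FPKM at 24 h, against 73.3 and 122 FPKM at 14 d and 61.7 and 97.5 FPKM at 21 d (log2 difference 0.99, SE 0.32, adjusted p = 0.255). None of these was called. Against the undamaged libraries the list's median was -0.30, on the other side of 0. Those libraries were split for this list: its summed FPKM was 5423 in one and 1989 in the other, against 2330 and 2885 at 24 h.

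The promoters of Calr and Pdia6 are shown because both hold the endoplasmic reticulum stress element, searched on both strands as CCAAT, N at 9 positions and CCACG, to which ATF6 binds beside NF-Y. They are the 250 bases before the RefSeq start on the gene's strand (GRCm38.p6), at chr8:84846932-84847181, minus strand for Calr and chr12:17266339-17266588, plus strand for Pdia6. Capitals mark the element, which stands on the opposite strand where it reads CGTGG first.
Calr: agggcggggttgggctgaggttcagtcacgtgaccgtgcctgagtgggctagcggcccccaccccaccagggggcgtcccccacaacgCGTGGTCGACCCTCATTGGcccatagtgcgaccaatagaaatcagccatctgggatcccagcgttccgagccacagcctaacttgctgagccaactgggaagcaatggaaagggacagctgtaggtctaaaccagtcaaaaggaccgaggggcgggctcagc
Pdia6: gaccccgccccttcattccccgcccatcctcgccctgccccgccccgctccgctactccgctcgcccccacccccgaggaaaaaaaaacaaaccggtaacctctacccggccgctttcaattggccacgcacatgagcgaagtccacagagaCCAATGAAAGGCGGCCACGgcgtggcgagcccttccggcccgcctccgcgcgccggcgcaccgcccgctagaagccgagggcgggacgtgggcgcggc
The element occurred in 8 of the 23 promoters of the list found in the table and in 0.13% of all 27025 promoters, and by its letters it always includes a CCAAT box.

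Other lists of protein synthesis and turnover lay nearer to 0. The median was 0.19 for cytosolic ribosomal proteins (35 members), 0.11 for the proteasome (33), 0.13 for heat shock proteins (18 of 19 tested) and -0.04 for ribosome biogenesis (30). The replicates differed in sign for each of these lists. The medians were -0.19 within replicate 1 and 0.497 within replicate 2 for ribosomal proteins, and -0.13 within replicate 1 and 0.33 within replicate 2 for the proteasome. They were -0.30 within replicate 1 and 0.42 within replicate 2 for heat shock proteins, and -0.09 within replicate 1 and 0.08 within replicate 2 for ribosome biogenesis. In the proteasome 0 members were free of overlap past a log2 difference of 1. With no limit on size 9 of 33 were higher without overlap, against 12.2% of all tested genes. Psmd8, a subunit of the regulatory particle, was at 48.6 and 47.3 FPKM at 24 h, against 32.1 and 30.8 FPKM at 14 d and 32.3 and 27.8 FPKM at 21 d (log2 difference 0.63, SE 0.19, adjusted p = 0.24). Hmox1, the heme oxygenase that opens the heme ring, was at 48.6 and 20.6 FPKM at 24 h, against 11.1 and 14.3 FPKM at 14 d and 5.77 and 10.1 FPKM at 21 d (log2 difference 1.59, SE 0.41, adjusted p = 0.2), with replicate 1 at 24 h the highest library. The Nrf2 antioxidant list that contains it had a median of 0.11.

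Cell cycle genes were low in all 6 libraries. Of the 34 genes of mitosis 4 were tested and the rest missed the filter, with the summed FPKM of all 34 at 19.2 and 5.13 FPKM at 24 h, against 6.84 to 18.7 FPKM in the regrown libraries. DNA replication had 20 of 33 genes tested, 16 of them higher at 24 h, with a median of 0.24. A member could pass the filter through its 24 h libraries alone, which can tilt this count and this median upward. That median was 0.76 within replicate 1 and -0.03 within replicate 2, so it rested on replicate 1, and the summed FPKM of the list was 111 and 55.7 FPKM at 24 h, against 57.6 to 71.3 FPKM in the regrown libraries. Gins1, a subunit of the replicative helicase complex, was at 6.45 and 3.17 FPKM at 24 h, against 2.01 and 2.45 FPKM at 14 d and 1.91 and 1.48 FPKM at 21 d (log2 difference 0.92, SE 0.25, adjusted p = 0.208). Cdt1, a licensing factor that loads the MCM helicase, was at 3.33 and 1.32 FPKM at 24 h, against 0.972 and 0.774 FPKM at 14 d and 0.661 and 0.873 FPKM at 21 d (log2 difference 0.80, SE 0.25, adjusted p = 0.245). Mcm5, the 1 member past a log2 difference of 1 without overlap, was at 5.07 and 1.42 FPKM at 24 h, against 0.223 and 1.41 FPKM at 14 d and 0.602 and 1.04 FPKM at 21 d. In all 3 replicate 1 was the higher 24 h library, and Cdt1 passed the filter through its 24 h libraries alone. The E2F motif, searched as TTTNNCGC on both strands, occurred in 9 of the 27 promoters of the list found in the table and in 4.94% of all promoters. It occurred in 1 of the 28 promoters found for mitosis and in 7 of the 18 found for G1.

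Regulators of G1 had a median of 0.08 over 14 of 24 tested members, and 2 were higher without overlap. Cdkn1a, the p21 inhibitor of cyclin-dependent kinases and a p53 target, was at 6.52 and 6.42 FPKM at 24 h, against 0.764 and 2.56 FPKM at 14 d and 0.378 and 2.81 FPKM at 21 d (log2 difference 1.64, SE 0.43, adjusted p = 0.212). Myc, a transcription factor for growth, was at 4.28 and 3.47 FPKM at 24 h, against 2.43 and 1.51 FPKM at 14 d and 0.704 and 0.699 FPKM at 21 d (log2 difference 1.12, SE 0.30, adjusted p = 0.207). Both 24 h libraries were alike for both genes, while replicate 2 of 14 d and 21 d was nearest to them for Cdkn1a. The p53 target list had a median of 0.34 over 15 of 21 (0.70 within replicate 1 and 0.29 within replicate 2). Fas, the death receptor, was at 20.7 and 24.98 FPKM at 24 h, against 13.9 and 14.5 FPKM at 14 d and 11.01 and 9.80 FPKM at 21 d (log2 difference 0.85, SE 0.22, adjusted p = 0.189), with no overlap.

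Immediate-early genes, induced within minutes of stimulation, had a median of 0.51 over 19 of 22 tested members, but 1.25 within replicate 1 and -0.21 within replicate 2. Without replicate 1 at 24 h it was -0.10. Cebpb, a transcription factor of the acute-phase response, was at 98.1 and 78.5 FPKM at 24 h, against 59.3 and 70.3 FPKM at 14 d and 27.9 and 19.8 FPKM at 21 d (log2 difference 1.15, SE 0.51, adjusted p = 0.376). Ier3, a stress response gene, was at 4.17 and 1.74 FPKM at 24 h, against 0.637 and 1.02 FPKM at 14 d and 0.432 and 0.746 FPKM at 21 d (log2 difference 1.15, SE 0.27, adjusted p = 0.172). Chemokine and NF-kB feedback genes split likewise (0.83 within replicate 1 and -0.26 within replicate 2). Cxcl1, the neutrophil-attracting chemokine, was at 27.02 and 23.998 FPKM at 24 h, against 8.05 and 12.5 FPKM at 14 d and 9.49 and 5.18 FPKM at 21 d (log2 difference 1.49, SE 0.30, adjusted p = 0.128). Ccl6, a macrophage chemokine, was at 30.4 and 26.2 FPKM at 24 h, against 13.4 and 10.3 FPKM at 14 d and 3.63 and 5.37 FPKM at 21 d (log2 difference 1.81, SE 0.45, adjusted p = 0.189). Cxcl9, an interferon-gamma-induced chemokine, was lower, at 2.79 and 0.838 FPKM at 24 h, against 3.61 and 5.32 FPKM at 14 d and 3.98 and 5.64 FPKM at 21 d (log2 difference -1.08, SE 0.30, adjusted p = 0.217). The interferon response list was lower in 20 of 24 tested members of 26 (median -0.35; -0.54 within replicate 1 and -0.27 within replicate 2). Gbp3, a guanylate-binding protein, was at 1.42 and 2.04 FPKM at 24 h, against 8.95 and 4.49 FPKM at 14 d and 5.19 and 3.12 FPKM at 21 d (log2 difference -1.17, SE 0.33, adjusted p = 0.22). The summed neutrophil markers were 65.8 and 22.7 FPKM at 24 h, against 3.21 to 79.5 FPKM in the regrown libraries, and 5 of 11 were not tested; their part in these lists was not tested.

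The 13 mitochondrially encoded mRNAs differed between the 24 h libraries. All 13 had a difference above 0 with a median of 1.57, but it was 3.13 within replicate 1 and -0.08 within replicate 2, and 0 of 13 were free of overlap. Cytochrome b (mt-Cytb) was at 56276 and 10509 FPKM at 24 h, against 6092 and 8047 FPKM at 14 d and 6769 and 13693 FPKM at 21 d. Nuclear-encoded respiratory chain subunits had a median of -0.08 over 34 members. With no limit on size 10 of 34 were lower without overlap and 1 was higher, against 13% and 12.2% of all tested genes. Erythroid markers were likewise high in replicate 1 at 24 h: their sum was 385 and 82.7 FPKM at 24 h, against 36.9 to 168 FPKM in the regrown libraries. Their median was 4.66 within replicate 1 and -0.24 within replicate 2. Endothelial marker sums were 70.8 and 89.2 FPKM at 24 h, against 81.4 to 104 FPKM in the regrown libraries, and those of stellate cells and fibroblasts 63.5 and 67.4 FPKM at 24 h, against 65.5 to 133 FPKM in the regrown libraries. Cholangiocyte marker sums were 46.4 and 22.97 FPKM at 24 h, against 8.40 to 32.3 FPKM in the regrown libraries, and those of lymphocytes 34.7 and 20.3 FPKM at 24 h, against 10.8 to 53.05 FPKM in the regrown libraries. In each of the stellate and cholangiocyte lists 1 marker was at 0 in both 24 h libraries, and no list had a marker at 0 in all 4 regrown libraries. Markers under 1 FPKM in all 6 libraries numbered 4 of 11 for neutrophils, 6 of 11 for lymphocytes, 2 of 7 for erythroid cells and 7 of 12 for cholangiocytes. For stellate cells and fibroblasts they numbered 4 of 18 and for endothelial cells 2 of 16. The part of other cells in the differences was not tested.

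**Figure D4:**
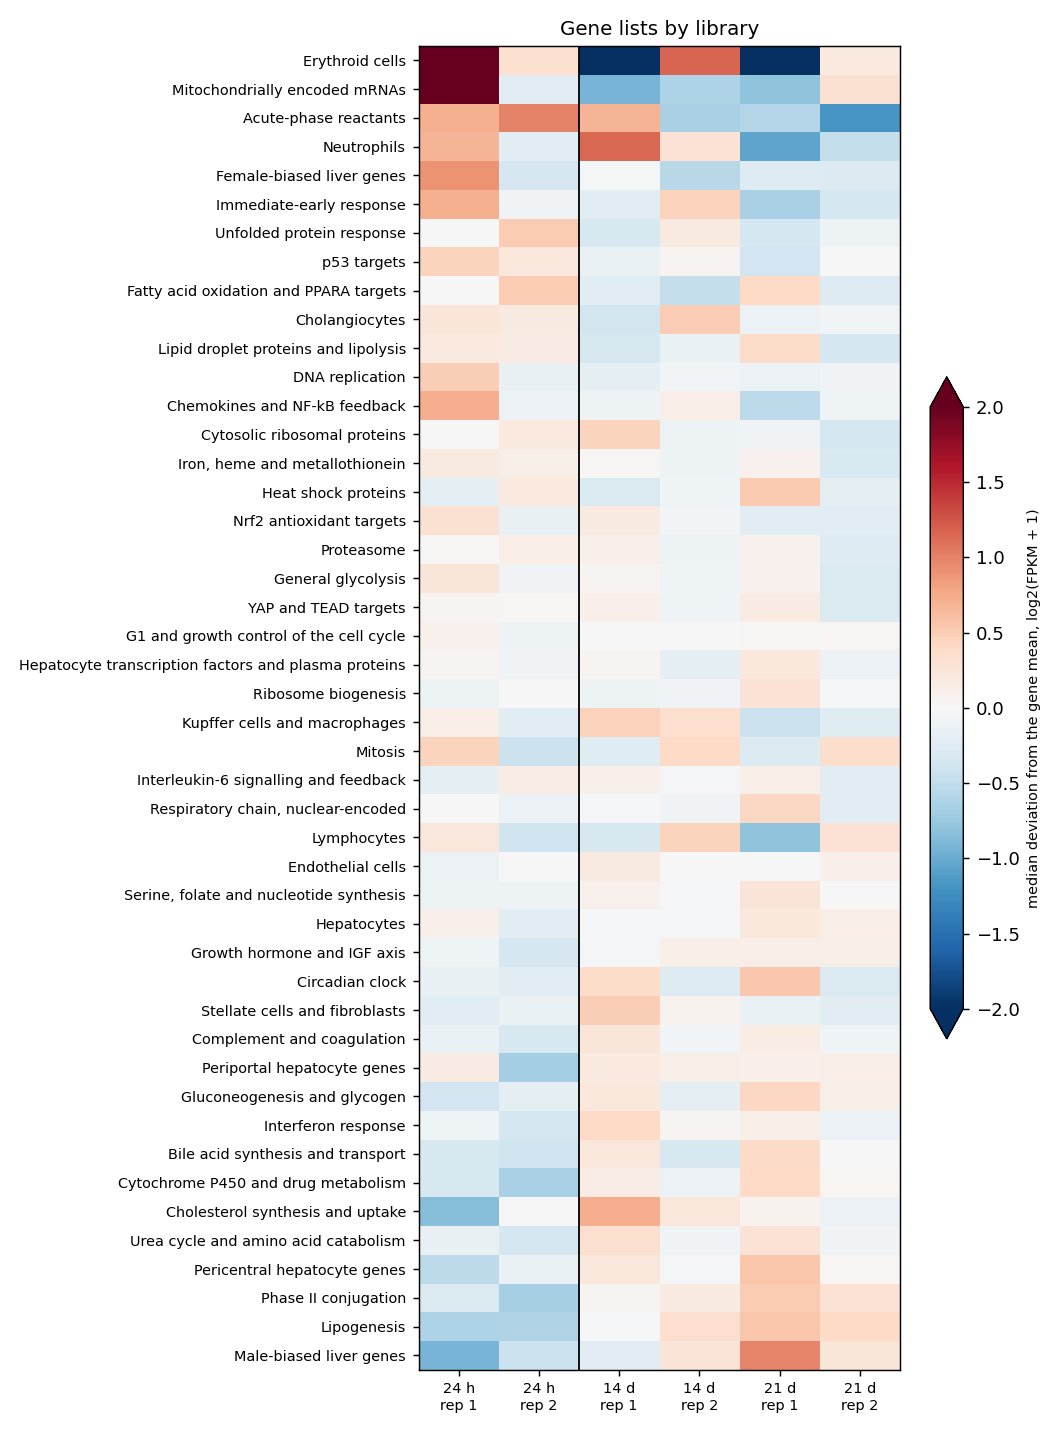
Each cell is the median, over the tested members of a gene list (rows), of the deviation of log2(FPKM + 1) in that library (columns) from the gene's mean over the 6 libraries; red is above and blue below, and colours end at 2 in either direction. The line separates the 24 h libraries on the left from the regrown ones; mitochondrial mRNAs and erythroid markers are deep red in replicate 1 at 24 h only, while lipogenesis and male-biased genes are blue in both 24 h libraries.

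To place the 24 h state, it was also compared with the 4 libraries of 6 h and 12 h. Both comparisons use the same 24 h libraries. Of 10986 genes tested, 56 were called higher (0.51%) and 60 lower (0.546%) at 24 h than at 6 h and 12 h. With no overlap and a log2 difference of at least 1, 710 were higher (6.46%) and 558 lower (5.08%). After scaling to the same FPKM sum 155 were called higher and 74 lower. With the replicate number as a block 11 were called higher and 12 lower, 21 of them shared with the fit without it. No gene was called in both comparisons. These calls too rested on single libraries: without replicate 1 at 24 h limma called 0 higher and 0 lower, with 1216 genes at an unadjusted p under 0.05. Calls were also 0 and 0 without replicate 1 at 12 h, 0 and 1 without replicate 2 at 12 h, 1 and 3 without replicate 2 at 6 h, and 15 and 4 without replicate 2 at 24 h.

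The 24 h mean of every cholesterol gene lay between the early and the regrown means on the log2 scale. All 25 were higher at 24 h than at 6 h and 12 h, against 49.1% of all genes tested (median 1.69), with 1 called, and all 25 were lower than in regrown liver. Insig1 was at 36.7 and 76.6 FPKM at 24 h, against 3.68 and 13.6 FPKM at 6 h and 12.3 and 6.41 FPKM at 12 h (log2 difference 2.58, SE 0.54, adjusted p = 0.0676). Sc5d was at 37.3 and 45.4 FPKM at 24 h, against 5.08 and 14.8 FPKM at 6 h and 15.1 and 10.2 FPKM at 12 h (log2 difference 1.88, SE 0.43, adjusted p = 0.0762). Neither passed the threshold, and neither overlapped. Phase II, P450 and bile acid lists likewise had medians of 0.54, 0.87 and 0.85 against the early times. Male-biased genes had -0.11, near the median over all genes of -0.01. DNA replication genes were higher at 24 h than at the early times in 19 of 19 tested members (median 0.89, 0 called). Members such as Cdt1 passed this filter through 24 h alone, which can tilt that count. The summed FPKM of the whole list, whatever the filter, was 55.7 to 111 at 24 h against 29.3 to 38.3 at 6 h and 12 h.

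Of the genes called against 6 h and 12 h, Hsd3b3, a hydroxysteroid dehydrogenase, rose: it was at 18.8 and 10.8 FPKM at 24 h, against 1.08 and 1.49 FPKM at 6 h and 0.339 and 1.43 FPKM at 12 h (log2 difference 2.92, SE 0.33, adjusted p = 0.0311). Coq8a, needed for ubiquinone synthesis, was at 30.1 and 25.4 FPKM at 24 h, against 1.44 and 2.84 FPKM at 6 h and 1.11 and 2.74 FPKM at 12 h (log2 difference 3.29, SE 0.31, adjusted p = 0.0221). Apol7a, of the apolipoprotein L family, was at 57.9 and 25.7 FPKM at 24 h, against 0.373 and 3.13 FPKM at 6 h and 2.16 and 2.77 FPKM at 12 h (log2 difference 3.79, SE 0.51, adjusted p = 0.0332). With the replicate block Apol7a was not called (adjusted p = 0.0597 by limma), and the other 7 genes named from this comparison were. In regrown liver Hsd3b3, Coq8a and Apol7a overlapped the 24 h libraries. Spon2, a secreted matrix protein, was at 32.3 and 11.1 FPKM at 24 h, against 0.522 and 0.760 FPKM at 6 h and 0.306 and 0.271 FPKM at 12 h (log2 difference 3.79, SE 0.39, adjusted p = 0.023), while its regrown libraries were at 0.622 to 5.23 FPKM.

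Cidec fell against the early times: it was at 7.18 and 6.97 FPKM at 24 h, against 50.8 and 99.8 FPKM at 6 h and 62.7 and 137 FPKM at 12 h (log2 difference -3.35, SE 0.44, adjusted p = 0.0329), and in both 24 h libraries it was above all regrown ones. Nrg4, a growth factor of the neuregulin family, was at 0.821 and 0.873 FPKM at 24 h, against 11.4 and 19.1 FPKM at 6 h and 17.6 and 17.1 FPKM at 12 h (log2 difference -3.20, SE 0.26, adjusted p = 0.0213). Malat1, a nuclear long non-coding RNA, was at 4.28 and 2.22 FPKM at 24 h, against 23.1 and 43.8 FPKM at 6 h and 37.7 and 43.7 FPKM at 12 h (log2 difference -3.17, SE 0.36, adjusted p = 0.0311). B3galt1, a galactosyltransferase, was at 1.13 and 3.79 FPKM at 24 h, against 30.6 and 31.5 FPKM at 6 h and 19.1 and 28.9 FPKM at 12 h (log2 difference -3.13, SE 0.38, adjusted p = 0.0329). Each of these 4 genes was lower in both 24 h libraries than in every early library, as the naming rule required. Immediate-early genes were lower at 24 h than at 6 h and 12 h in 18 of 19 (median -0.78, 1 called), and ribosome biogenesis in 28 of 30 (median -0.57, 0 called). Neutrophil and erythroid markers had medians of -2.09 and -2.54 in the same comparison, with summed neutrophil markers of 22.7 to 65.8 FPKM at 24 h against 58.2 to 849 FPKM at 6 h and 12 h. The part of these cells in the differences was not tested.

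**Figure D5:**
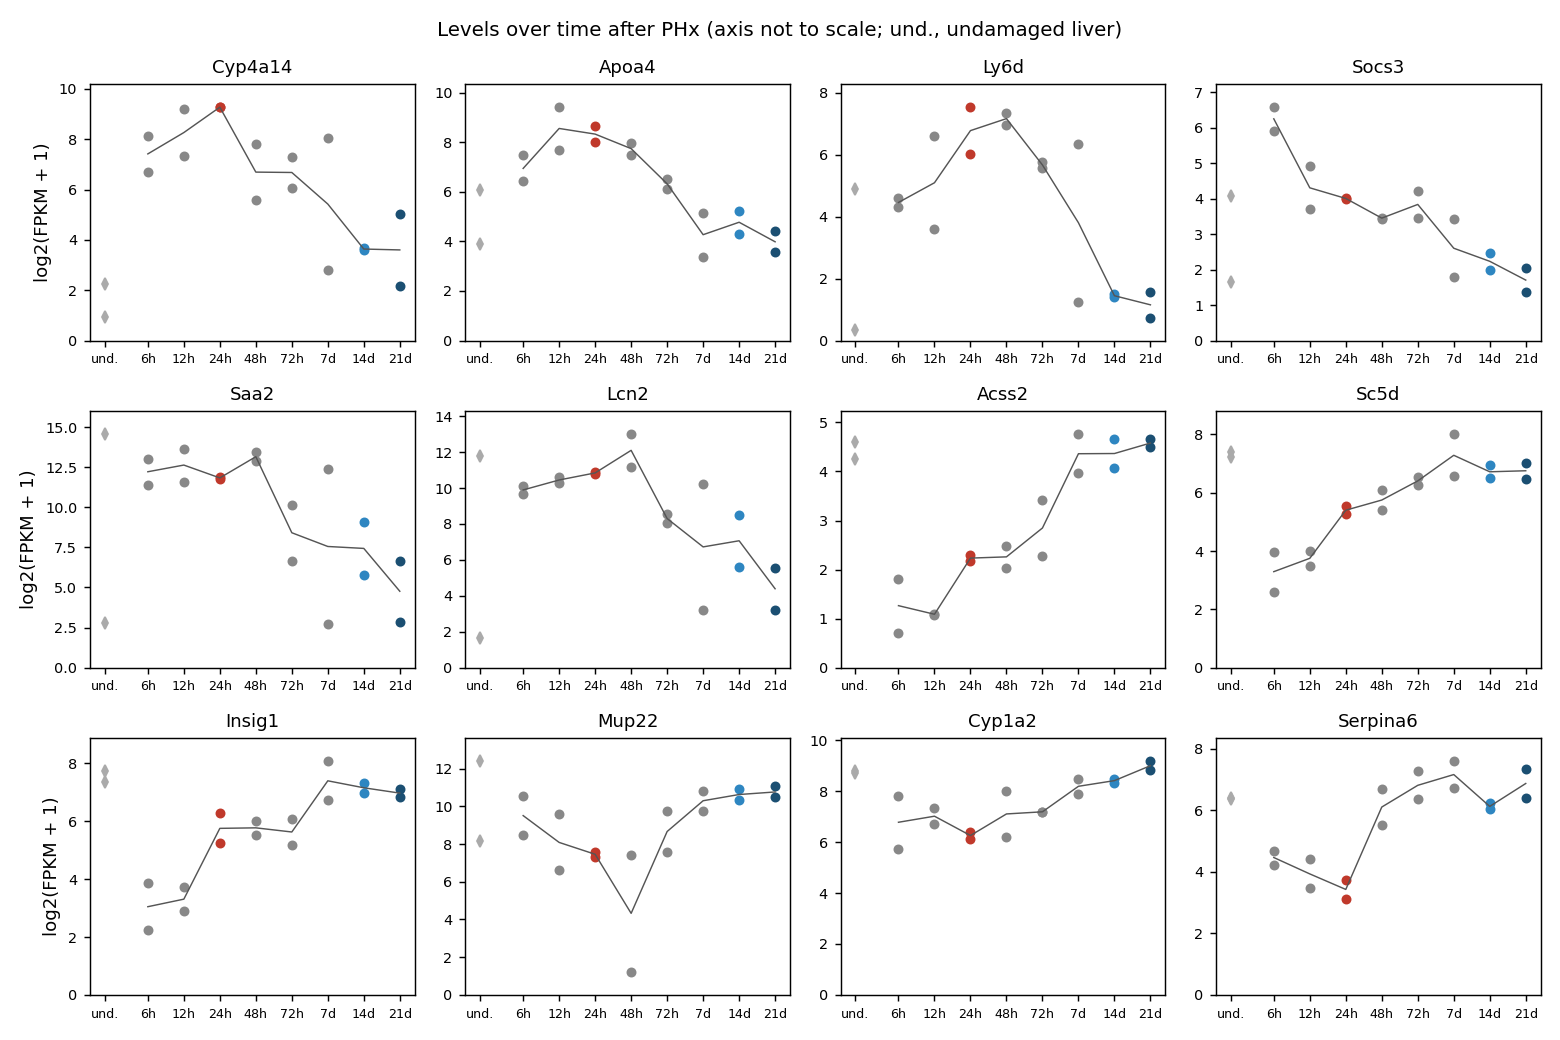
Level as log2(FPKM + 1) in every library (vertical axis, from 0) of 12 genes in undamaged liver (diamonds) and from 6 h to 21 d after PHx (circles, 2 libraries a time, horizontal axis not to scale), with a line through the means of the PHx times. Red is 24 h and blue the regrown times, and the 48 h, 72 h and 7 d libraries differ from the other PHx times in sex markers; Cyp4a14 has its highest pair of libraries at 24 h (614 and 621 FPKM), and Serpina6 its lowest mean there (7.65 and 12.3 FPKM).

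The levels over all times are given as ranges. The 48 h, 72 h and 7 d libraries, with Xist present and Ddx3y at 0, differ in sex markers from the other PHx times, so for them time and sex cannot be told apart. Cyp4a14 was at 103 to 280 FPKM at 6 h, 162 to 580 at 12 h, 614 to 621 at 24 h and 46.6 to 224 at 48 h. Socs3 was highest early, at 59.3 to 94.9 FPKM at 6 h, 11.9 to 29.2 at 12 h and 14.8 to 15.3 at 24 h. Serpina6 was at 17.8 to 24.8 FPKM at 6 h, 9.97 to 20.1 at 12 h, 7.65 to 12.3 at 24 h and 44.5 to 102 at 48 h. Acss2 stayed under 10 FPKM up to 72 h (3.86 to 9.67 at 72 h) and was at 14.6 to 26.1 at 7 d. Each range covers 2 libraries.

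The 2 late times that form the regrown group were compared with each other. Of 9798 genes tested, limma called 0 higher and 0 lower at 14 d than at 21 d, and 310 had an unadjusted p under 0.05. With 2 libraries a side this does not show that the times were alike.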

How the data were processed

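RNA-seq libraries of mouse liver after partial hepatectomy were analysed from the FPKM table the authors deposited for the 20 libraries. The submitters' processing notes name HISAT2 2.0.5 and the build mm10. How reads were counted, with which annotation and strand setting, and how the FPKM were scaled is not given in the sources used here. Gene symbols and lengths came from GENCODE M21 (GRCm38). The low FPKM of each library are whole multiples of 1 read per gene length, and 97.9% to 98.7% of these values in the 6 libraries came out whole within 0.05 of a read, which gave the read depths.

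Genes with an FPKM of at least 1 in 2 or more of the compared libraries were kept. Values were tested as log2(FPKM + 1) with limma 3.58.1 (R 4.3.3; trended, robust moderation), adjusted over all genes tested, and the script was tested on simulated data. Tables, promoters and figures used Python 3.11.15, numpy 2.4.6, pandas 2.3.3, scipy 1.17.1 and matplotlib 3.10.9.

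Genes named are the up to 12 called genes with the largest difference each way whose higher group averaged 5 FPKM or more and whose groups did not overlap, leaving out predicted genes, pseudogenes and microRNA hosts; up to 4 members per list with the largest moderated t; and 4 each way from 24 h versus 6 h and 12 h. Members and lists were chosen with earlier results of these data known. The STAT motif was added after values were seen. Motifs were searched on both strands in 250 bases before RefSeq starts (1 promoter for each of 27025 symbols). Pairs not given above follow, with the share of all promoters in brackets. The PPAR response element was in 0 of 24 promoters of fatty acid oxidation and PPARA targets (0.0407%). Lipogenesis had the sterol element in 1 of 17 (1.22%) and the E-box in 2 of 17 (6.86%). The clock had the E-box in 5 of 18 and the D-box in 1 of 18 (2.44%). Mitosis had the CCAAT box in 20 of 28 (37.5%) and the cell cycle homology region in 11 of 28 (18.3%). Alternatives changed the pseudocount, filter, scaling, moderation, reference and libraries, added a replicate block, and ran voom on recovered reads. The voom fit and a scaling to the same sum without mitochondrial genes were chosen after seeing the data. Some genes chosen by the naming rule are not reported here.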

Additional observations from a re-analysis of the deposited data

Results flagged for a closer look

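In 12 of 167 named genes with 4 regrown libraries, 1 library lay apart from the other 3 by more than Dixon's 95% critical value for 4 samples, where chance flags about 1 in 20. Replicate 1 at 14 d was apart in 5: Cdkn2c was at 4.26 FPKM against 2.52 to 2.64 in the others, Bcl3 at 5.09 against 8.78 to 9.54, Mt2 at 17.4 against 0 to 0.326, Cyp2f2 at 361.9 against 534.9 to 558.1, and Gm22043 at 0.268 against 0 in the other 3. Replicate 1 at 21 d was apart in another 5. Orc6 was at 1.15 FPKM there against 1.54 to 1.60, Abcb4 at 20.9 against 14.8 to 15.6, Slc27a5 at 534 against 342 to 367, C8b at 261 against 203 to 212, and Sdha at 129 against 81.7 to 85.1. Replicate 2 at 14 d had Prox1 at 6.75 FPKM against 12.1 to 12.9, and replicate 2 at 21 d had Serinc2 at 3.67 against 2.34 to 2.49.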

How the results depend on the processing

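Calls of 24 h against regrown liver (11 higher, 13 lower) depended on the settings. They were 3 and 9 with a pseudocount of 0.1, 0 and 0 with no filter (1763 genes at an unadjusted p under 0.05), 7 and 13 with an FPKM of at least 5, 16 and 77 after scaling to the same FPKM sum (which moved the median of all genes by -0.27), 7 and 12 with the 16 PHx libraries fitted together, 7 and 14 with voom on recovered reads, 3 and 3 with separate means of 14 d and 21 d, 1 and 0 against 14 d alone, 1 and 1 against 21 d alone, and 0 and 0 against undamaged liver. Leaving out 1 library gave 0 to 71 higher and 0 to 38 lower. Calls of 24 h against 6 h and 12 h (56 and 60) were 32 and 74, 0 and 0, 92 and 83, 155 and 74, and 549 and 462 under the first 5 of these, 42 and 37 without trend and robust options, and 0 to 39 and 0 to 50 leaving out 1 library. Between 14 d and 21 d, leaving out 1 library gave 0 to 1 higher.

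With the replicate block, calls were 8 and 11 against regrown liver, 11 and 12 against 6 h and 12 h, and 12 and 3 between 14 d and 21 d. The replicate number follows the cell type label and, as taken here, the submission, but the labels do not tie same-numbered libraries to 1 animal or day. The replicate differences correlated at -0.01 (24 h and 14 d), -0.11 (24 h and 21 d), 0.39 (14 d and 21 d) and 0.49 (6 h and 12 h). Those of 24 h correlated at -0.13 with 6 h and -0.18 with 12 h. Those of 14 d and 21 d with 6 h and 12 h lay between -0.31 and -0.11. Only 14 d with 21 d and 6 h with 12 h exceeded 0.1, and these are the pairs of times pooled as reference groups. Spearman's rho between 14 d and 21 d libraries was 0.949 within replicate 1 and 0.947 within replicate 2. It was 0.926 between the replicates of 14 d and 0.931 between those of 21 d. The regrown libraries were thus more alike by replicate number than by time, while the fit without a block treats them as independent. Over the other pairs of times the replicate differences were not alike.

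Some named genes changed sign. The undamaged libraries used as a reference were themselves unequal, for example for Calr (370 to 914 FPKM) and Dnajb11 (39.4 to 152 FPKM). Against undamaged liver the log2 differences were -0.38 for Cdkn1a, 0.091 for Cdkn2c, -0.55 for Cish, 0.12 for Gbe1, 0.67 for Ugp2, -0.99 for Gapdh, 0.0028 for Prps2, -0.30 for Dnajb11, -0.21 for Calr, -0.20 for Pdia3, -0.32 for Pdia6, -0.14 for Bag3, -0.0045 for Bax, 0.61 for Igfbp3, -0.34 for Noct and 0.33 for Sdhb. At the same FPKM sum they were -0.056 for Cct3, -0.0039 for Hspe1 and -0.11 for Axl. Leaving out 1 library at a time, the differences ranged from -0.14 to 0.85 for Aurka and -0.14 to 1.06 for Noct, each lowest without 24 h replicate 1. They ranged from -1.03 to 0.16 for Ccnb2 and -0.061 to 0.77 for Cryab, with the sign changed without 24 h replicate 2, and from -0.26 to 0.013 for Cenpa, changed without 21 d replicate 2. The causes were not tested. Of the other values of single genes 2878 kept direction and side of the threshold, 308 lost it and 45 gained it; of list medians 820 moved by less than the spread and 99 by more.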

Other observations

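Further lists are given by their median log2 difference of 24 h minus regrown liver, beside a median of 0 over all tested genes. Hepatocyte transcription factors and plasma proteins had -0.04, glycolysis 0.11, and the circadian clock -0.24. Female-biased liver genes, of which 6 of 18 were tested, had 0.57, and -0.14 without replicate 1 at 24 h.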
